A study of Mesocricetus auratus with 11 samples.

Results

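Regions of the Syrian hamster (Mesocricetus auratus) genome where MT2 cells lost most CpG methylation after 5-aza-2′-deoxycytidine (5aCdR) are described here as sensitive tiles. The genome was divided into tiles of 1000 bp, and a tile was eligible when at least 3 of its CpGs had at least 10 reads in each of the 7 MT2 libraries. Tiles were chosen by 2 measured conditions: the mean level with vehicle exceeded the mean level after 5aCdR by at least 20 percentage points, and every 5aCdR library lay below every vehicle library. The difference between these means is called the fall. The rule took 652 of 18639 eligible tiles (3.50%), on 211 of the 983 scaffolds with eligible tiles. The falls chose the tiles, so they are given as a description, without a test.

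MT2 is a line derived from a morphologically transformed clone of Syrian hamster fetal cells, induced with 5 µg/mL benzo[a]pyrene, which bypassed senescence and was typed as female. One frozen stock at an estimated passage 28 supplied all MT2 plates: 4 libraries came from plates with 0.05% DMSO as vehicle for 48 h and 3 from plates with 5 µM 5aCdR for 48 h. The protocol describes 4 plates with 5aCdR, of which only 3 entered here. The 4 primary libraries came from separate female fetuses at gestation day 13.5, without head, viscera and limbs, as an untreated mixture of ectodermal and mesodermal cells cultured for under 3 days and 1 passage. Because the MT2 plates share a stock, their spread is that between plates of 1 line. Passage, transformation, benzo[a]pyrene, clonal origin, cell mixture, treatment of the plates and individual cannot be told apart in any contrast of MT2 with primary cells.

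CpG methylation is copied to the new strand after DNA replication, chiefly by the maintenance methyltransferase DNMT1. 5aCdR is a cytidine analogue that is built into replicating DNA and traps DNA methyltransferases, after which methylation is lost over the following divisions. In bulk DNA, a lower level can mean fewer methylated cells, fewer methylated alleles or fewer methylated CpGs per molecule, and these cannot be told apart here.

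Reduced representation bisulfite sequencing reads the ends of fragments cut at a CpG-containing motif. Libraries held 17834610 to 46148127 reads over listed CpGs, and the median CpG had 20 to 27 reads. Vehicle replicates 2 and 3 were the shallowest, with 18242833 and 17834610 reads. The level of a tile was its methylated reads divided by all its reads, over the eligible CpGs and both strands.

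The sensitive tiles were methylated with vehicle, as their name says, with a median level of 79.5% and 515 of 652 at 60% or more. The lowest was at 23.3%. After 5aCdR their median level was 49.0%. The fall had a median of 26.3 points, quartiles of 22.7 and 31.3, and a range of 20.0 to 60.4. It reached 30 points in 203 tiles and 40 points in 42. Methylation was seldom erased: a median of 63.5% of the vehicle level remained, and less than 50% of it remained in 109 tiles. All vehicle reads were methylated in 43 tiles.

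**Figure D1:**
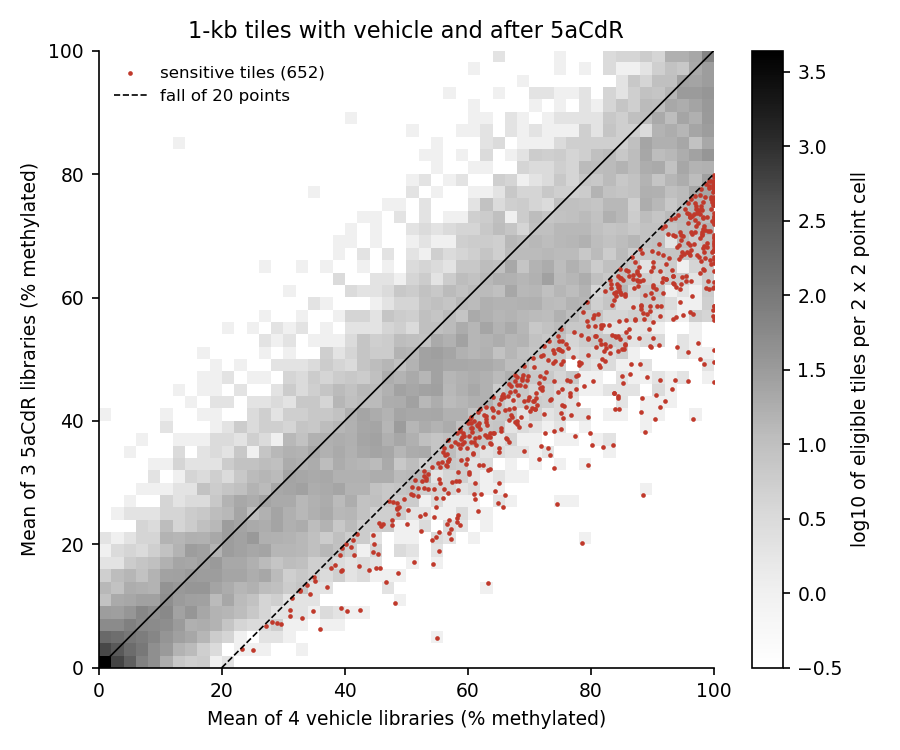
Mean methylation level of each eligible tile in the 4 vehicle libraries (horizontal axis, percent) and the 3 5aCdR libraries (vertical axis, percent). Grey cells give the log10 number of tiles, red points are the 652 sensitive tiles, the solid line marks equal levels and the dashed line a fall of 20 points, below which the points lie by the rule.

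The mirrored rule, a rise of at least 20 points with every 5aCdR library above every vehicle library, took 40 tiles (0.215%), or 16.3 sensitive tiles for each mirrored one. A tile at 40 to 60% with vehicle has room to move 20 points either way, and there the rule took 111 tiles against 12 for its mirror. With overlap between libraries allowed, 1286 tiles had a fall of at least 20 points and 136 a rise of that size. The count of sensitive tiles depended on which libraries entered. Without vehicle replicates 1 to 4 it was 935, 1368, 1369 and 937, or 4.48%, 4.93%, 4.84% and 4.39% of the tiles then eligible. Without 5aCdR replicates 1, 2 and 3 it was 1120 (5.66%), 1040 (5.01%) and 1029 (5.11%). In each case more tiles were eligible and fewer libraries had to be separate.

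**Figure D2:**
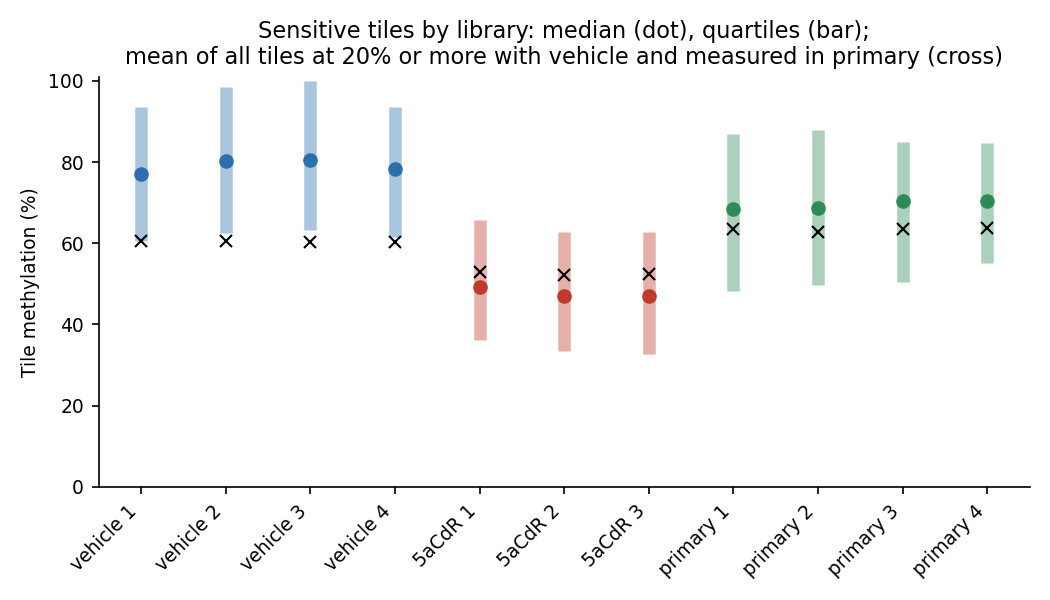
Methylation level (percent) of the sensitive tiles in each library, as the median (dot) and quartiles (bar), and the mean over the 4416 eligible tiles at 20% or more with vehicle that had a primary level (cross). The MT2 libraries chose the tiles and the primary libraries, measured in 310 of them, did not.

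The mean level over the 652 tiles was 76.5% ± 1.51 (SD, n = 4) with vehicle and 48.4% ± 1.67 (SD, n = 3) after 5aCdR. The vehicle libraries lay between 75% and 78.0% and the 5aCdR libraries between 47.2% and 50.3%. Those 2 ranges are apart because the rule required it of each tile. In reads, methylated reads in these tiles went from 3750 ± 459 (SD, n = 4) to 2429 ± 127 (SD, n = 3) per 1000000 reads over CpGs, and unmethylated reads from 1093 ± 61.1 to 2359 ± 48.9. The total in these tiles was 4843 ± 510 with vehicle and 4788 ± 149 after 5aCdR, a difference smaller than the spread between libraries.

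The deepest sensitive tile was KB708153.1:4218001-4219000, where 4 CpGs were used and the median library had 2142 reads. Its vehicle levels were 54.7%, 61.9%, 63.8% and 66.3%, and its 5aCdR levels 42.9%, 41.1% and 40.5%. The fall of 20.2 points was just past the threshold, and the 5aCdR libraries lay close together. Its primary libraries were at 93.3%, 79.8%, 83.0% and 86.4%, all above the vehicle libraries.

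KB708190.1:3705001-3706000 had 1974 reads. Its vehicle libraries were at 88.0%, 85.7%, 88.8% and 88.9%, and its 5aCdR libraries at 68.9%, 63.7% and 62.0%. Here the gap between the groups was many times the spread within either, 1.48 points (SD) with vehicle and 3.61 after 5aCdR. The primary level was 78.0% ± 2.85 (SD, n = 4), between the MT2 groups.

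At KB708181.1:4489001-4490000, with 976 reads, the vehicle libraries stood at 98.3 to 100% and the 5aCdR libraries at 75%, 82.3% and 79.6%. Nearly complete methylation thus left a residue of 79.6% of the vehicle level. KB708136.1:2562001-2563000, with 992 reads, was at 96.1% ± 3.27 (SD, n = 4) with vehicle and 73.0% ± 7.27 (SD, n = 3) after 5aCdR. KB708161.1:3728001-3729000, with 866 reads, was at 95.2% ± 4.39 with vehicle and 67.1% ± 6.18 after 5aCdR, the largest fall (28.1 points) of the 6 deepest tiles. The remaining one, KB708316.1:1599001-1600000, with 1150 reads, had 5aCdR libraries at 61.1%, 33.0% and 60.8%, so that replicate 2 alone was far down.

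The largest falls came from shallower tiles, in most of which the libraries of a group lay far apart. The 8 largest ran from 50.2 to 60.4 points, each over 3 CpGs, with 73 to 287 reads. At KB708170.1:13010001-13011000 the vehicle libraries were at 72.6%, 81.2%, 100% and 100%, and the 5aCdR libraries at 21.3%, 3.17% and 59.5%. At APMT01220248.1:1001-2000 all 4 vehicle libraries were at 100%, and the 5aCdR libraries at 12.5%, 48.1% and 87.9%. At KB708127.1:48226001-48227000 vehicle replicate 4 was at 11.4% against 62.3 to 73.7% in the others, and the 5aCdR libraries were at 0%, 5.71% and 8.57%. This last tile kept 8.67% of its vehicle level.

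KB708216.1:7024001-7025000 was at 84.1%, 98.6%, 100% and 79.3% with vehicle and at 26.3%, 41.0% and 53.5% after 5aCdR. By contrast KB708454.1:263001-264000 had 5aCdR libraries within 36.5 to 39.5%, from 78.4 to 100% with vehicle, at 287 reads. The other 3 of the 8, KB708307.1:1322001-1323000, KB708302.1:786001-787000 and KB708200.1:1777001-1778000, had falls of 58.5, 56.4 and 53.7 points.

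The 4 sensitive tiles with most CpGs used had 9 to 11 of them. KB708147.1:4047001-4048000, with 11 CpGs over 533 bp, was at 77.4%, 82.9%, 86.1% and 78.2% with vehicle and at 58.8%, 52.3% and 61.0% after 5aCdR. KB708152.1:13871001-13872000, with 10, was at 96.4% ± 3.43 (SD, n = 4) and 70.6% ± 10.9 (SD, n = 3). KB708129.1:40881001-40882000 and KB708147.1:7839001-7840000, with 9 each, had falls of 20.3 and 22.5 points. None of these 4 reached a fall of 30 points.

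At the threshold itself, the 3 tiles just inside it had falls of 20.04 to 20.06 points (KB708164.1:15438001-15439000, KB708327.1:974001-975000 and KB708152.1:5383001-5384000). The 3 just outside had no overlap between libraries either and falls of 19.91 to 19.996 points (KB708171.1:4095001-4096000, KB708331.1:1198001-1199000 and KB708252.1:824001-825000). The distance between the lowest vehicle library and the highest 5aCdR library had a median of 8.58 points over the 652 tiles. It was under 5 points in 184 tiles and at least 10 points in 281.

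Within tiles the loss was shared by most CpGs but was uneven. Of the 2473 CpGs used in sensitive tiles, 2290 (92.6%) had a lower mean level after 5aCdR. Every CpG was lower in 493 tiles, and lower by at least 10 points in 317. At least 1 CpG was higher after 5aCdR in 135 tiles. The falls of the CpGs of a tile had a median range of 32.5 points. The tile's level is the sum of these CpGs, so their direction is part of what chose the tile.

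Sensitive tiles were taken from all classes of vehicle level from 20%, and more often from the methylated end. A fall of 20 points needs a level of at least 20%. The 9401 eligible tiles at 20% or more with vehicle are the reference from here on, of which 6.94% were sensitive, and their median fall was 7.62 points. Sensitive tiles made up 1.14% of tiles at 20 to 40%, 4.50% at 40 to 60%, 8.94% at 60 to 80%, 12.6% at 80 to 90%, 10.1% at 90 to 95% and 15.3% at 95 to 100%. The rule also required libraries not to overlap. In other tiles the SD between vehicle libraries had a median of 11.5 points at 40 to 60% and 2.91 at 95 to 100%. The part of this in the shares was not tested. The share of the vehicle level that remained in sensitive tiles went from a median of 35.1% in the lowest class to 71.9% in the highest. In the other 8749 tiles it was 86.0 to 91.0% in every class. The rule sets part of both, as a fall of 20 points is a larger part of a lower level.

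**Figure D3:**
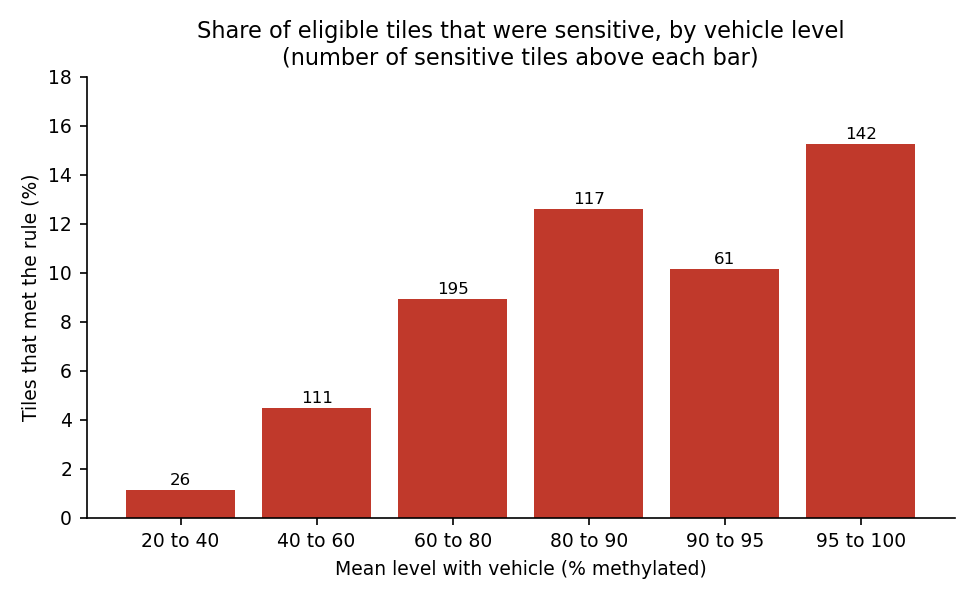
Share of eligible tiles that met the rule (percent, bars) in 6 classes of mean vehicle level (percent), with the number of sensitive tiles above each bar. The share ran from 1.14% in the lowest class to 15.3% in the highest. The rule demands 20 points and no overlap between libraries, and its part in this order was not tested.

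To compare tiles of equal vehicle level, the other tiles were weighted to the sensitive tiles' mix of those 6 classes. Medians per class were averaged for reads, span and primary level, and means for the other measures. Depth was much the same, with 183 reads per library in sensitive tiles and 178 in the others, and 49.1 against 48.7 reads per CpG. The sign of that small difference in reads turned in several alternatives, among them at least 5 CpGs per tile, where it was -24.3 reads. CpG density was also much the same. Sensitive tiles had 3.79 used CpGs on average and the others 3.89, and 9.46 against 9.90 CpGs with reads in any library, a difference that turned to 0.523 with at least 5 CpGs per tile. The used CpGs spanned 74.9 bp against 70.5 bp.

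Among themselves sensitive tiles were mostly small samples of a tile. In 367 of 652 (56.3%) exactly 3 CpGs were used, in 122 at least 5, and 11 at most. The median number of reads per library was 179, with quartiles of 133 and 273 and a range of 41 to 2142. The used CpGs lay within 100 bp in 453 tiles. Of the 1014 tiles at 20% or more with vehicle and at least 20 covered CpGs, 47 were sensitive (4.64%), against 6.94% of all such vehicle levels. With 3 to 5, 6 to 9 and 10 to 19 covered CpGs the share was 8.34%, 5.95% and 7.28%. By density, the share of tiles at 60% or more with vehicle that were sensitive was 13.7% with 3 to 5 covered CpGs, 8.95% with 6 to 9, 11.4% with 10 to 19 and 8.95% with at least 20, which is no steady order.

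The share of sensitive tiles and the size of their fall differed between classes of depth. Of tiles at 20% or more with vehicle, 5.54% were sensitive under 100 reads, 7.33% from 100 to under 200, 7.34% from 200 to under 400 and 5.98% from 400 reads. Among the same tiles the mirrored rule took 5, 16, 5 and 0. The median fall of the sensitive tiles was 28.5, 27.1, 25.3 and 25.1 points, smaller in the deeper classes. The SD between the 4 vehicle libraries, over tiles of these classes, had a median of 13.1, 11.3, 9.41 and 6.01 points.

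Because the same libraries chose the tiles and measured the fall, the fall was also measured in libraries that the choice did not use. For each of the 12 pairs of 1 vehicle and 1 5aCdR library, tiles were chosen by the same rule in the other 5 libraries, and the fall was taken in the left-out pair. The choice took 1095 to 1277 tiles, of which 506 to 579 were among the 652. In the libraries used, these tiles had a mean fall of 28.7 to 29.9 points. In the left-out pair the mean fall was 10.8 points, with a range of 9.45 to 12 over the pairs. The other tiles, at equal vehicle level in the libraries used, had 8.27 points (7.23 to 8.85).

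The chosen tiles thus exceeded the others by 2.50 points in left-out libraries, with a range of 1.59 to 3.25, and did so in 12 of 12 pairs. The pairs share libraries and are not independent. In the left-out pair 70.1% of chosen tiles were lower after 5aCdR, against 65.4% of the others, and 31.4% against 24.2% had a fall of at least 20 points. The vehicle level of the chosen tiles was 73.7% in the libraries used and 67.4% in the left-out vehicle library. For the others these levels were 73.0% and 72.4%. The 5aCdR level in the left-out library was 56.6% for chosen tiles and 64.1% for the others. The falls of 20 points and more therefore describe the libraries that chose the tiles, and in libraries that did not choose them the name sensitive rests on these 2.50 points.

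**Figure D4:**
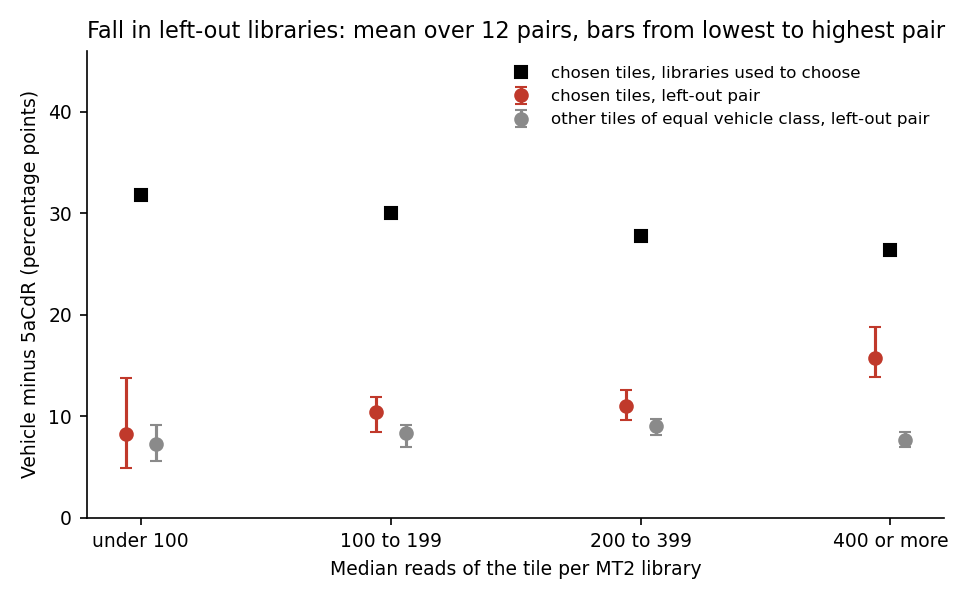
Mean fall (percentage points) by class of median reads per tile, for tiles chosen in 5 MT2 libraries, in those libraries (squares) and in the left-out pair (red), and for other tiles of equal vehicle class in the left-out pair (grey). Whiskers span the lowest and highest of 12 pairs, and red and grey ranges are farthest apart from 400 reads.

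Deep tiles kept more of their fall. Under 100 reads, chosen tiles had 31.8 points in the libraries used and 8.27 (4.92 to 13.8) in the left-out pair, against 7.30 in other tiles, and were above them in 7 of 12 pairs. From 100 to under 200 reads these values were 30, 10.4 and 8.36, and from 200 to under 400 reads 27.7, 11 and 9.02. From 400 reads they were 26.4 points in the libraries used and 15.8 (13.8 to 18.8) in the left-out pair, against 7.67 (7.01 to 8.43) in the others. The 3 deeper classes were above the others in 12 of 12 pairs. From 400 reads 85.8% of chosen tiles were lower in the left-out pair, against 62.3% under 100 reads. The classes of reads were added after the data had been seen.

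A test for single tiles gave few calls. In a quasi-binomial model over all 18639 eligible tiles, 146 were lower after 5aCdR at a Benjamini-Hochberg adjusted p under 0.05 (0.783%) and 3 were higher. Of the 652 sensitive tiles 92 were among those 146 (14.1%). An unadjusted p under 0.05 in this model was found in 607 sensitive tiles and in 2297 of all 18639. These counts use the same contrast as the rule and support nothing about it. Of the 6 deepest tiles 5 were called, with adjusted p-values of 0.000815 at KB708190.1:3705001, 0.00123 at KB708181.1:4489001, 0.00606 at KB708136.1:2562001, 0.00725 at KB708161.1:3728001 and 0.0110 at KB708153.1:4218001. Of the 8 tiles with the largest fall, this quasi-binomial test called KB708200.1:1777001 (adjusted p 0.0135), KB708454.1:263001 (0.0167) and KB708302.1:786001 (0.0206). It also called KB708216.1:7024001 (0.0402) and KB708307.1:1322001 (0.0403). The largest fall, at KB708170.1:13010001, had an adjusted p of 0.111 in this test and was not called. Neither were APMT01220248.1:1001 (0.0945) and KB708127.1:48226001 (0.149). Without vehicle replicates 1 to 4 the called sensitive tiles were 24, 38, 38 and 19, of 48, 85, 75 and 41 called in all. Without 5aCdR replicates 1 to 3 they were 58, 66 and 50, of 102, 124 and 102.

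The primary libraries took no part in the choice. The 310 sensitive tiles with at least 3 CpGs in all 11 libraries had a mean level of 65.6% ± 0.657 (SD, n = 4) in primary cells, 75.8% ± 1.67 (SD, n = 4) with vehicle and 48.4% ± 1.82 (SD, n = 3) after 5aCdR. Primary levels used those CpGs and MT2 levels all used CpGs of the tile. The primary libraries lay between 64.8% and 66.2%, below every vehicle library and above every 5aCdR library. Over the 4416 eligible tiles at 20% or more with vehicle that had a primary level, the order was different: the primary libraries were at 62.8 to 63.8% and the vehicle libraries at 60.4 to 60.6%. The vehicle libraries took part in the choice, so the order in sensitive tiles is not independent of it. In the left-out choices, the vehicle level of chosen tiles was 73.7% in the libraries used and 67.4% in the left-out library.

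At equal vehicle level, sensitive tiles were less methylated in primary cells than the others, at 68.9% against 77.4%. The difference, others minus sensitive, was 9.79, 8.65, 8.96 and 8.48 points in primary libraries 1 to 4, a mean of 8.97 ± 0.581 (SD, n = 4). By class, the primary medians were 40.2% in sensitive and 42.5% in other tiles at 20 to 40% with vehicle, 46.2% and 59.3% at 40 to 60%, 63.7% and 74.8% at 60 to 80%, 79.6% and 84.4% at 80 to 90%, 81.4% and 89.5% at 90 to 95%, and 86.4% and 91.5% at 95 to 100%. Sensitive tiles were lower in all 6 classes, with only 11 tiles in the first. Beside this stands the vehicle level in the left-out vehicle library, which was also lower in chosen tiles (67.4% against 72.4%). The part of that in the primary difference was not tested.

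**Figure D5:**
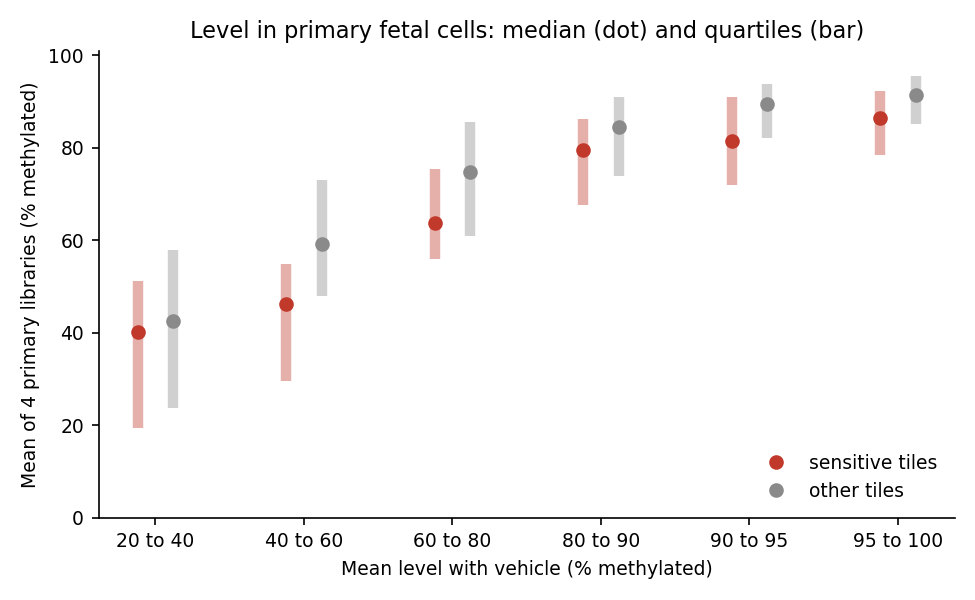
Mean level in the 4 primary libraries (percent) by class of mean vehicle level (percent), as median (dot) and quartiles (bar) of sensitive tiles (red) and other eligible tiles (grey). The median of the sensitive tiles lay below that of the other tiles in all 6 classes.

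Seen from the primary side, among tiles at 60% or more with vehicle, the sensitive share was 16.1% (20 of 124) where primary cells were under 40%, 15.0% (33 of 220) at 40 to 60%, 14.6% (91 of 625) at 60 to 80% and 8.39% (103 of 1227) from 80%. In the same order it was 11.4%, 14.8%, 12% and 4.27% for tiles at 60 to 80% with vehicle, and 27.8%, 15.7%, 19.5% and 10.2% for tiles at 80% or more. In both, the share was lowest where primary cells were at 80% or more, and the 3 classes below that had no common order. Most sensitive tiles were methylated in primary cells too. Of 310, 104 were at 80% or more there and 18 were under 20%. Primary cells were above vehicle in 87, by at least 10 points in 28, and below it by at least 10 points in 133.

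The tiles farthest from the primary level were picked in each direction. At KB708264.1:2732001-2733000 all 4 vehicle libraries were at 100%, the 5aCdR libraries at 74.1%, 84.6% and 73.7%, and the primary libraries at 0%, 14.2%, 25.5% and 9.77%. This tile was unmethylated to weakly methylated in fetal cells and fully methylated in MT2, and kept 77.5% of that level after 5aCdR. KB708159.1:12091001-12092000 was at 97.8% ± 2.61 (SD, n = 4) with vehicle and 12.1% ± 2.38 (SD, n = 4) in primary cells, with 5aCdR libraries at 80.8%, 92.7% and 18.3%. KB708295.1:1568001-1569000 was at 99.5% with vehicle, 23.0% in primary cells, and 55.7%, 92.1% and 75.2% after 5aCdR.

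In the opposite direction, KB708204.1:6067001-6068000, with 8 CpGs over 612 bp, was at 100%, 87.2%, 100% and 93.6% in primary cells, 68.5%, 69.7%, 69.0% and 63.1% with vehicle, and 38.6%, 56.8% and 30.9% after 5aCdR. KB708184.1:4233001-4234000 was at 90.7% ± 5.44 in primary cells and 56.4% ± 9.04 with vehicle (SD, n = 4 each). KB708342.1:584001-585000 had primary libraries at 100%, 97.2%, 46.4% and 51.7% and a vehicle mean of 31.1%. At these 3 tiles the level after 5aCdR was farther from the primary one, and at the 3 tiles above it was nearer. Both directions follow from the choice. Every sensitive tile fell by the rule, and these were picked by their primary level against vehicle.

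In the quasi-binomial test of vehicle against primary over 10178 tiles, 1247 were lower with vehicle (12.3%) and 870 higher (8.55%) at an adjusted p under 0.05. The test needed 3 CpGs with 10 reads in the vehicle and primary libraries only, which 317 sensitive tiles had, against 310 with a level over CpGs shared by all 11 libraries. Of these 317, 9 were lower (2.84%) and 71 higher (22.4%). Other tiles at equal vehicle level gave 11.9% lower and 13.8% higher. This contrast shares the vehicle libraries with the rule, so the excess of higher calls is not independent of the choice.

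Sensitive tiles were mostly alone. With a distance of at most 10 kb between tile starts, 621 had no other sensitive tile near, 14 groups held 2 and 1 group held 3. Thus 31 of 652 tiles had another within 10 kb (4.75%, exact 95% Clopper-Pearson interval 3.25 to 6.68%, which treats tiles as independent). Among other tiles of equal vehicle level the share was 2.08%, while an eligible neighbour at 20% or more with vehicle was as common for both (22.7% and 23.4%). The surplus was smaller when 1 vehicle library was left out, at 4.17% against 2.98% without replicate 1, 4.89% against 4.21% without replicate 3 and 3.95% against 3.26% without replicate 4. It was also smaller without vehicle replicate 2 (6.36% against 4.12%). The same held without 5aCdR replicate 1 (5.09% against 3.66%), 2 (5.48% against 3.31%) or 3 (4.18% against 3.17%). The 148 sensitive tiles with such a neighbour had neighbours of which 16.5% were sensitive, against 6.89% for other tiles. With 1 library left out that difference of 9.60 points was between 2.05 (without vehicle replicate 3) and 9.14 points (without 5aCdR replicate 2).

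The fall of those neighbouring tiles was 10.7 points on average for sensitive tiles and 8.91 for others. With adjacent starts left out (2 to 10 kb apart), 15.1% of neighbours were sensitive against 7.24%, and their fall was 10.9 against 9.23 points. At over 10 and up to 100 kb the values were 7.60% against 7.56% and 8.48 against 8.57 points, so the surplus was not seen at that distance. It was small in number and did not hold with at least 5 CpGs per tile, where none of 122 sensitive tiles had another near (0.844% in the others) and the neighbours' fall was 5.16 against 10.3 points, over 10 tiles. The neighbours' fall was 8.73 against 8.50 points without 5aCdR replicate 3, 9.55 against 8.85 without vehicle replicate 3 and 9.45 against 8.70 without vehicle replicate 4. Covered CpGs of the same tile at least 150 bp from the used ones, present in 189 sensitive tiles, had a fall of 5.02 points against 3.83 in other tiles, with vehicle levels of 68.2% and 68.4%. That order did not hold generally. It turned with at least 20 reads per CpG (-1.17 against 5.66), at least 5 CpGs (0.174 against 3.49) and tiles of 500 bp (2.13 against 4.01). It also turned without vehicle replicate 1 (2.18 against 4.14), vehicle replicate 4 (4.16 against 4.43) or 5aCdR replicate 1 (4.09 against 4.18).

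The group of 3 lay on KB708147.1 between 1551001 and 1561000 and took all 3 tiles eligible in that stretch. The ends of the stretch were set by the sensitive tiles themselves. Within 10 kb, the tiles starting at 1551001, 1559001 and 1560001 had 6, 4 and 5 eligible neighbours of the kind compared above. Only 2 of these neighbours were sensitive in each case, and the others lay outside the stretch. KB708147.1:1551001-1552000 was at 90.2%, 76.2%, 74.5% and 82.2% with vehicle and 55.4%, 49.0% and 61.9% after 5aCdR. The tiles starting at 1559001 and 1560001 had falls of 37.9 and 28.6 points. None of the 3 reached an adjusted p under 0.05 in the quasi-binomial test (0.0603 to 0.129).

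Of the pairs, KB708276.1:700001-701000 was at 89.3%, 86.4%, 91.1% and 76.4% with vehicle and at 51.0%, 55.4% and 57.1% after 5aCdR. Its partner at 698001 had a fall of 30.4 points, with vehicle libraries from 60.4 to 91.6%. The adjacent tiles at 5510001 and 5511001 on KB708140.1 had falls of 23.7 and 24.7 points, and in both, 5aCdR replicate 2 was the lowest library, at 48.9%.

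By scaffold, 54 scaffolds held at least 50 eligible tiles at 20% or more with vehicle, and the sensitive share among these tiles ran from 1.39% to 19.7%, with a median of 6.46%. The extremes were KB708132.1, with 1 of 72 tiles, and KB708162.1, with 12 of 61. KB708147.1 held 41 sensitive tiles of 588 (6.97%), close to the 6.94% of all.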

How the data were processed

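Reduced representation bisulfite libraries of Syrian hamster DNA were prepared with the Premiere RRBS kit of Diagenode, per the labels' protocols. The tools named per the submitters' processing notes are methylKit 1.10.0 under R 3.6.1, the aligner Bismark 0.22.1 with Bowtie2, the trimmer Trim Galore 0.5.0, and bcl2fastq 2.20.0.42 for base call conversion. The genome build and any removal of PCR duplicates are not given in the sources used here, so positions are those of the files, no sequence or gene is named, and reads may not be independent molecules. Per the file headers, the deposited coverage is a read count for 1 strand of a CpG, with no entry under 10 reads, beside the percent of C and of T. A strand under 10 reads is therefore missing from the sums.

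Methylated reads were recovered as coverage times percent, rounded, and strands were summed. The test for tiles was quasi-binomial logistic regression (F test, Benjamini-Hochberg over all tiles), with the dispersion moderated by limma 3.58.1 and held at 1 or more, checked on simulated data. Python 3.11.15, numpy 2.4.6, pandas 2.3.3, scipy 1.17.1 and R 4.3.3 were used. Intervals cover counting error only. Replicate numbers were not used to pair libraries.

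The tiles, the lists and most alternatives were chosen with earlier results of these data known. Named tiles were the 8 with the largest fall, the 6 with most reads, the 4 with most CpGs, the 3 on either side of the threshold, the 3 largest groups and the 3 farthest from the primary level each way.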

Additional observations from a re-analysis of the deposited data

Results flagged for a closer look

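Over the named tiles, 54 sets of 4 libraries were examined for 1 library far from the rest by Dixon's ratio, and 6 were marked. Chance marks about 1 in 20 for normally distributed values, which levels capped at 100% are not. Where the other libraries all stand at 100%, any lower value gives a ratio of 1, as at KB708295.1:1568001 and KB708147.1:1560001. The chance rate for these sets is therefore not known. With vehicle, replicate 4 was at 88.2% at KB708302.1:786001 (the others at 98.7 to 100%), at 98.1% at KB708295.1:1568001 (the others at 100%) and at 85.4% at KB708147.1:1560001 (the others at 100%). Vehicle replicate 1 was at 47.7% at KB708147.1:7839001, where the others were at 58.1 to 58.8%. In primary cells, replicate 3 was at 76.1% at KB708216.1:7024001 (the others at 98.6 to 100%) and at 100% at KB708276.1:698001 (the others at 68.3 to 71.7%).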

How the results depend on the processing

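The rule took 652 of 18639 eligible tiles (3.50%). With at least 20 reads per CpG it took 162 of 5541 (2.92%), and with at least 5 CpGs 122 of 7331 (1.66%). Of the 18639 tiles it took 203 (1.09%) with a fall of at least 30 points and 1286 (6.90%) with overlap allowed. With 1 MT2 library left out, the sensitive tiles numbered 935 to 1369 (4.39 to 5.66% of eligible tiles). Their primary level minus that of other tiles was negative in every alternative run: -11.0 points with 20 reads, -12.9 with 5 CpGs, -9.18 with the mean over CpGs, and -10.6 to -7.02 with 1 library left out. The share with another sensitive tile near was 16.9% within 100 kb (14.1% in other tiles of equal vehicle level), 1.23% with 20 reads (0.255%), 0% with 5 CpGs (0.844%), 0.985% with a fall of 30 points (0.667%) and 2.33% over strand positions listed in all 7 MT2 libraries (1.38%). The excess of the neighbours' fall was 0.682 points within 50 kb. The difference in reads turned negative with 5 CpGs (-24.3), a fall of 30 points (-15.4) and fixed strand positions (-2.17), and ran from -6.19 to 2.34 with 1 library left out. That in covered CpGs turned positive with 20 reads (0.172), 5 CpGs (0.523) and fixed strand positions (0.181). Fixed strand positions, an alternative chosen after seeing the data, gave 473 sensitive tiles, of which 368 were among the 652. The cause of these shifts was not tested.

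Of 5aCdR against vehicle, the quasi-binomial test called 149 tiles, 11259 without dispersion, 30 by limma on the mean logit, and 41 to 124 with 1 library left out. A replicate block gave 59 calls, of which 26 were sensitive tiles (92 without the block). Libraries of the same number did not deviate together tile by tile (correlations of -0.0232 to 0.00390 over both contrasts). Such correlations cannot show a shift of a whole library, so a shared batch was not tested. Of vehicle against primary the calls were 2117 tiles, 944 with 20 reads (2736 tiles tested) and 1964 with the block. The SD between vehicle libraries had a median of 13.1 points in tiles under 100 reads and 6.01 points from 400 reads.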

Other observations

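The 40 tiles of the mirrored rule, whose level was higher after 5aCdR, included 14 at under 20% with vehicle, 7 at 20 to 40%, 12 at 40 to 60% and 7 at 60 to 80%. The read share of a tile after 5aCdR relative to vehicle had a median log2 ratio of -0.03 in sensitive tiles and -0.25 in other tiles of equal vehicle level. For vehicle relative to primary cells it was -0.12 and 0.01. In the left-out pairs the first ratio was -0.13 in chosen tiles and -0.23 in the others. It differed with the vehicle library. With replicate 1 or 4 left out it was -0.0407 to 0.0844 in chosen tiles and -0.121 to -0.0457 in the others. With the shallowest, replicate 2 or 3, it was -0.357 to -0.210 and -0.429 to -0.354. The part of library depth in these ratios was not tested. In the other tiles at 20% or more with vehicle, methylated reads per 1000000 reads over CpGs went from 64489 ± 6144 (SD, n = 4) to 50165 ± 974 (SD, n = 3) after 5aCdR. Unmethylated reads went from 44538 ± 4018 to 46927 ± 893. For unmethylated reads the vehicle libraries, at 41006 to 48226, spanned the 5aCdR libraries, at 46189 to 47920.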
